A study of Mus musculus with 10 samples.

Results

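The 42 genes described here encode the machinery of mitosis: the cyclins and kinases that drive entry into division, the kinetochore and spindle, the motors, and the proteins that end mitosis and split the cell. They were listed by name, with no measured value in the rule but with earlier results of these data known. All 42 were found among the 55357 gene identifiers of the count tables. RNA-seq counts came from 6 libraries of mouse hearts labelled Cd163-/-, 3 after saline and 3 after IL-10. Another 4 libraries came from cultured mouse peritoneal macrophages, 2 wild type and 2 Cd163-/-. CD163 is a macrophage scavenger receptor for haptoglobin-haemoglobin complexes, and interleukin-10 (IL-10) is an anti-inflammatory cytokine.

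Every heart was labelled Cd163-/- on a C57BL/6 background. The series text describes male mice, 8 weeks old, put through transverse aortic constriction, an operation in which the aortic arch is tied so that the left ventricle pumps against pressure. It gives the IL-10 dose as 50 µg/kg/day, injected under the skin on set days between day 0 and day 27. Whether each heart was operated on is not in its own label, and sham-operated and wild-type hearts were not analysed here. All macrophage cultures, of both genotypes, were harvested 3 days after thioglycolate, selected by adherence for 2 to 3 h, and kept for 48 h in 100 nM dexamethasone, a synthetic glucocorticoid. No source used here ties replicates to different mice or cultures, so each p-value is set against a between-sample spread that may be technical.

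Mitotic genes are transcribed late in the cell cycle and are nearly silent in resting cells. Many share a promoter element called the CHR (cell cycle genes homology region), which the MuvB complex binds: with the pocket proteins p107 or p130 and E2F4 it represses in resting cells, and with B-MYB and FOXM1 it activates in dividing ones. NF-Y, which binds the CCAAT box, acts beside it. In the adult heart most cardiomyocytes no longer divide, while fibroblasts, endothelial cells and macrophages can.

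Promoter windows from RefSeq (GRCm38.p6, 250 bases before to 50 after the annotated start) were found for 36 of the 42 genes, as 38 windows. The CHR was searched as TTTGAA and, in a second form, as TTCGAA. The other motif was the CCAAT box, and each was read on both strands. A CHR and a CCAAT box were counted separately, whether or not they overlapped. A CHR lay in 84.2% of the members' windows against 19.2% of all 32851 windows. The CCAAT box lay in 73.7% against 37.4%, and both motifs together in 68.4% against 7.52%. The 4 windows below have a CHR within 100 bases before the start and at least 2 CCAAT boxes. Only motifs wholly within the 140 bases before the start were counted for this. The windows were picked by these motifs, with no expression value in the rule. Cdk1, Top2a, Cdc20 and Ube2c all fell in the hearts described next, as did most of the 42 genes. Each is the 140 bases before the start, read 5′ to 3′ along the gene's strand, and capitals mark the CHR (runs of 6) and the CCAAT box (runs of 5), on either strand.
Cdk1 (chr10:69352913-69353052, minus strand): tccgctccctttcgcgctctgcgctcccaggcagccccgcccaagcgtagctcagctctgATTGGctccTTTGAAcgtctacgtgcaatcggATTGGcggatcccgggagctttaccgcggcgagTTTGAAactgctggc
Top2a (chr11:99024190-99024329, minus strand): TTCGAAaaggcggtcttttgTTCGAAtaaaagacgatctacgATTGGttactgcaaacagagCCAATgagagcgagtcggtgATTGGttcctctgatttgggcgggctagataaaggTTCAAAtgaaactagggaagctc
Cdc20 (chr4:118437344-118437483, minus strand): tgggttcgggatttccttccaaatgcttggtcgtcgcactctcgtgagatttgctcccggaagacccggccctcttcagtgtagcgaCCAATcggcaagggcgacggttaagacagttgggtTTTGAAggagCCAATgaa
Ube2c (chr2:164769789-164769928, plus strand): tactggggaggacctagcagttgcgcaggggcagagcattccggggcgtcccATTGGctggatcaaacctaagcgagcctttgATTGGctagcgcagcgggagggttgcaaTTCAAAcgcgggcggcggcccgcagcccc

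In other members the CHR sits just after the annotated start. The 30 bases around it are shown for 5 members below, with the CHR in capitals. Aspm and Bub1 are among the larger falls in hearts, Cenpf is the member that did not pass there, and Ccnb2 and Plk1 are textbook genes of mitotic entry.
Aspm (chr1:139454767-139454796, plus strand): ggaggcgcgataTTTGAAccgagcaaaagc
Bub1 (chr2:127831828-127831857, minus strand): ctgcgcggggaaTTCGAAtcgccggcggcc
Ccnb2 (chr9:70421533-70421562, minus strand): agcggcgcggtaTTTGAAtcgcggaccggg
Plk1 (chr7:122159453-122159482, plus strand): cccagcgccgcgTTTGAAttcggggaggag
Cenpf (chr1:189688067-189688096, minus strand): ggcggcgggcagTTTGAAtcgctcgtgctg

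The CHR of the mitotic genes was concentrated around the start. It began within the 25 bases after the start in 34.2% of the members' windows, against 1.43% of all windows, and within the 25 bases before it in 21.1% against 1.46%. Further than 25 bases before the start, no bin of 25 bases held it in more than 10.5% of the members' windows. A match is a description of the letters, and none of these data measured binding.

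**Figure D1:**
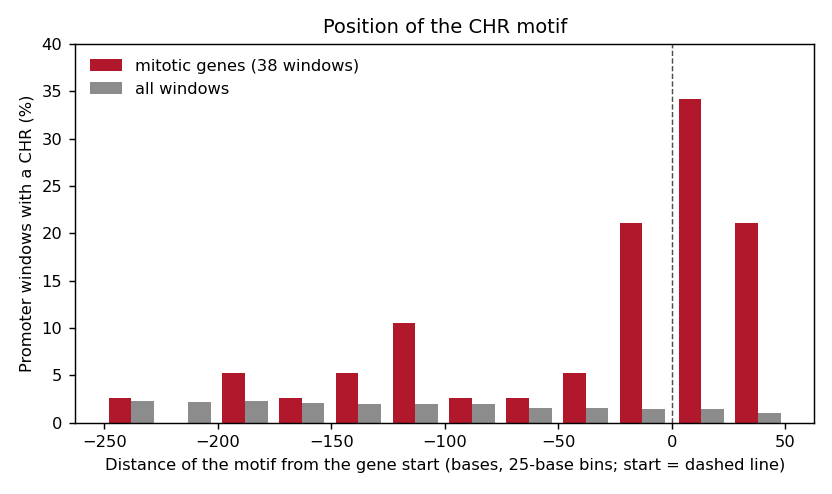
Share of promoter windows (y axis, %) in which a CHR begins in each 25-base bin, by distance from the gene start (x axis, bases), for the 38 windows of mitotic genes and for all 32851 windows. The mitotic genes peak at 34.2% in the first bin after the start, where all windows are at 1.43%.

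Total counts were 13.5 to 14.9 M in hearts and 16.7 to 18.6 M in macrophages, and mitochondrially encoded genes took 33.7% to 39.4% and 2.43% to 3.12% of them. M stands for 10 to the power 6, and levels are CPM, counts per M of the TMM-scaled library. The floor of 3 counts was 0.192 to 0.220 CPM in a heart and 0.149 to 0.190 CPM in a macrophage library. The targeted gene Cd163 was at 17.0 ± 5.57 CPM in wild-type and 0.612 ± 0.233 CPM in knockout macrophages (SD, n = 2 each). In the hearts, labelled Cd163-/- throughout, its level was 3.45 ± 0.181 CPM with saline and 2.70 ± 0.404 CPM with IL-10 (n = 3 each), which is not as low as in the knockout cultures, though the tables were scaled separately. The labels do not say which part of the gene was deleted. Summed markers of the labelled source were high in each. Of 7 cardiomyocyte markers the hearts held 28842 to 41559 CPM, and of 11 macrophage markers the cultures held 25600 to 31311 CPM. The cultures also held markers of other cells. Of 8 fibroblast markers they held 1642 to 4839 CPM, where the hearts held 2211 to 3099 CPM. Of 6 mesothelial markers they held 80.9 to 262 CPM, where the hearts held 6.21 to 17.6 CPM. Of 13718 genes tested in hearts 941 rose and 919 fell after IL-10, and of 13861 tested in macrophages 1817 were higher and 1846 lower in the knockout (quasi-likelihood test in edgeR, with an adjusted p under 0.05). The higher share of these calls was 50.6% in hearts, 39.0% with upper-quartile scaling and 35.6% with library size alone, and 49.6%, 62.2% and 68.6% in macrophages.

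The heart comparison asked what IL-10 changed in hearts labelled Cd163-/-. Mitotic transcripts fell across every role. Of the 42 genes 41 fell and 0 rose after IL-10 (edgeR quasi-likelihood, adjusted p under 0.05). The median log2 fold change was -2.60, a level 6.07-fold higher after saline, while the median over all tested genes was -0.01, where 6.7% of genes fell and 6.86% rose. All 42 values were below 0, against 50.9% of tested genes, and 34 were past 4-fold lower, against 0.714%. The members summed to 223, 185 and 219 CPM after saline and to 35.0, 35.6 and 40.1 CPM after IL-10, with no overlap. In 41 of the 42 the 3 IL-10 hearts all lay below the 3 saline hearts, as they did in 15.8% of tested genes. All 42 passed the count filter, 19 of them only through the saline hearts, since no IL-10 heart reached the filter's 0.702 CPM. Of the 15 that reached it in every heart, 14 fell. With no filter 40 of the 42 fell. In bulk heart RNA, fewer dividing cells and less RNA per cell cannot be told apart.

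**Figure D2:**
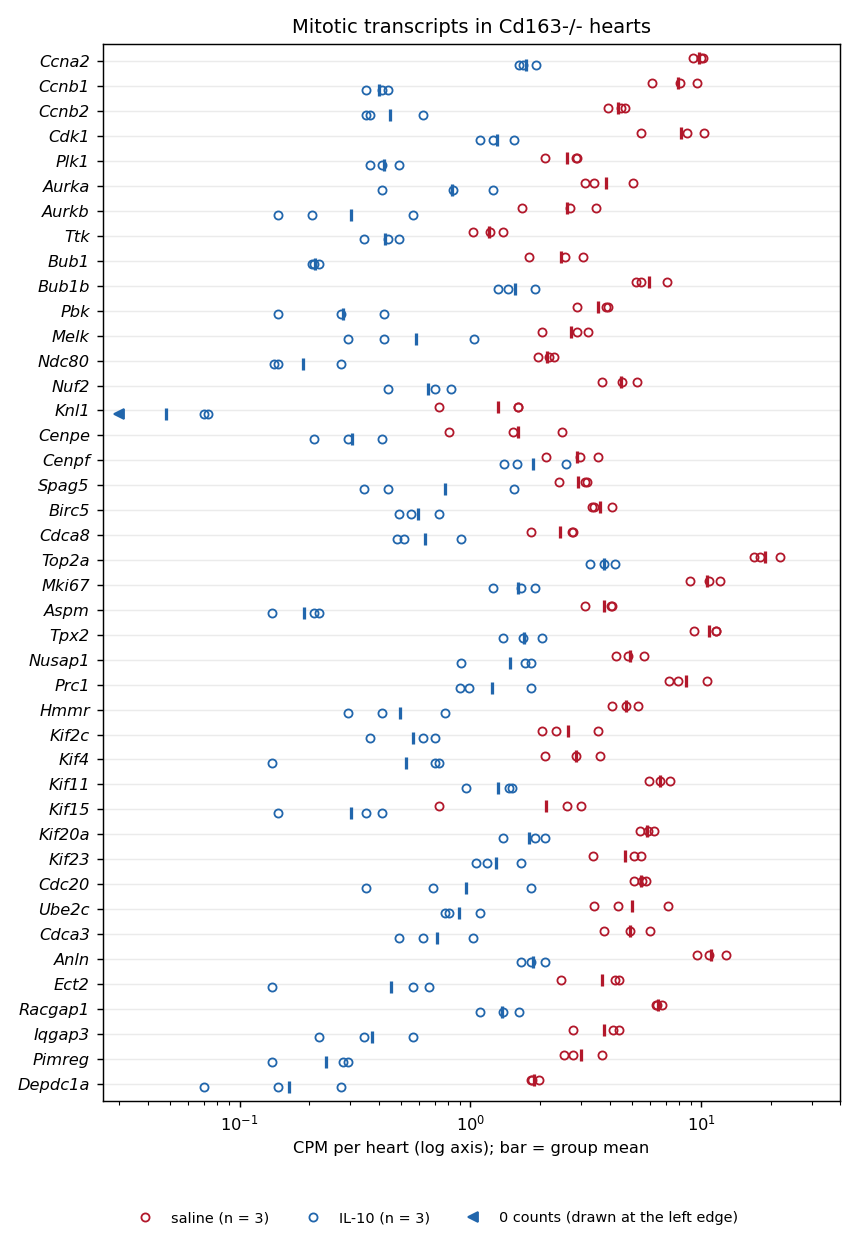
CPM of the 42 mitotic genes (x axis, log scale) in each of the 3 saline and 3 IL-10 hearts, with a bar at each group's mean and genes on the y axis ordered by role. The groups are apart in 41 genes and overlap in Cenpf, and a triangle marks the 1 value at 0 counts, Knl1 in IL-10 heart 1.

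All 4 genes of the mitotic cyclins and Cdk1 fell. Cyclin B1, from Ccnb1 (chromosome 13, 100778650 to 100786570 on GRCm38), activates Cdk1 to start mitosis. Ccnb1 was at 8.11, 6.11 and 9.60 CPM after saline and at 0.414, 0.440 and 0.351 CPM after IL-10, or 84 to 150 counts against 5 or 6. Its log2 fold change was -4.28 (SE 0.32; edgeR quasi-likelihood, adjusted p = 1.55e-06), a 19.4-fold lower level. Ccnb2, the second B-type cyclin, was at 4.68, 3.93 and 4.48 CPM and then at 0.621, 0.367 and 0.351 CPM (log2 -3.26, SE 0.35). Ccna2, cyclin A2, which acts from S phase to early mitosis, was at 10.2, 9.17 and 9.98 CPM and then at 1.93, 1.69 and 1.61 CPM (log2 -2.48, SE 0.21). Cdk1 itself fell by 2.64 on the log2 scale (SE 0.29). The ratio of Ccna2 to Ccnb1 reads was 1.04 to 1.50 in saline hearts and 3.83 to 4.67 in IL-10 hearts, resting on 5 or 6 Ccnb1 reads in the latter. Of the exon bases of Ccna2, 12.5% are shared with Exosc9 on the other strand. How reads from shared bases were counted is not given, so they may have been added or left out.

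All 8 other mitotic kinase genes fell, with log2 fold changes from -3.61 to -1.49. Pbk, a mitotic serine/threonine kinase, was at 3.95, 3.86 and 2.88 CPM after saline and at 0.276, 0.147 and 0.421 CPM after IL-10 (log2 -3.61, SE 0.42). Bub1, a kinase of the spindle checkpoint that delays anaphase until chromosomes are attached, was at 2.56, 3.06 and 1.79 CPM and then at 3 counts in each IL-10 heart (log2 -3.48, SE 0.46). Bub1b, the checkpoint protein BUBR1, stayed easier to read, at 5.19, 5.46 and 7.10 CPM and then at 1.45, 1.32 and 1.90 CPM (log2 -1.92, SE 0.27). The adjusted p of these 3 were 6.10e-05, 0.000179 and 0.000289 (edgeR quasi-likelihood). The centrosome and passenger kinase genes Aurka and Aurkb fell by 2.22 and 3.06, Plk1, the polo-like kinase of mitotic entry, by 2.60, and Melk by 2.19. Ttk, the checkpoint kinase MPS1, had the smallest fall of the kinases (log2 -1.49, SE 0.44; edgeR quasi-likelihood, adjusted p = 0.0344) at 14 to 19 counts against 5 to 7. That call did not hold when 1 heart was left out, whichever it was (adjusted p 0.0650 to 0.127), in DESeq2 (0.0800) or with no filter (0.0692).

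Of the 6 kinetochore genes 5 fell. Ndc80 and Nuf2 encode partners in the complex that grips microtubules. Ndc80 was at 2.19, 1.97 and 2.30 CPM after saline and at 0.276, 0.147 and 0.140 CPM after IL-10 (log2 -3.46, SE 0.47), and Nuf2 at 5.26, 3.71 and 4.54 CPM and then at 0.827, 0.440 and 0.702 CPM (log2 -2.76, SE 0.34). Knl1, the scaffold that recruits the BUB kinases, had 22, 10 and 25 counts in saline hearts, then 0, 1 and 1 in IL-10 hearts. That is a ratio of 28.1 (exact 95% counting interval 7.42 to 237), and its fitted value (log2 -4.57) depends on the prior count. Cenpe, a kinetochore motor, and Spag5, also called astrin, fell by 2.37 and 1.90. The Cenpe call was lost without saline replicate 3 (log2 -1.89, adjusted p = 0.0649, edgeR quasi-likelihood) and that of Spag5 without IL-10 replicate 2 (log2 -1.62, adjusted p = 0.0652).

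Cenpf was the exception. It encodes a large protein of the outer kinetochore, and was at 2.12, 2.98 and 3.58 CPM after saline and at 1.59, 1.39 and 2.60 CPM after IL-10, with overlapping groups. With a log2 difference of -0.64 (SE 0.33) it missed the threshold (adjusted p = 0.216, edgeR quasi-likelihood). Its share of the members' summed CPM was 0.952% to 1.64% in saline hearts and 3.92% to 6.48% in IL-10 hearts. Top2a, by contrast, held 8.18% to 9.89% and 9.28% to 10.8%.

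The genes of chromosome structure and of the passenger complex fell together. Top2a (chromosome 11, 98992943 to 99024189), the topoisomerase that untangles sister chromatids, was the most counted member at 301, 232 and 280 reads after saline and 55, 45 and 60 after IL-10. That is 18.9 ± 2.70 against 3.77 ± 0.456 CPM (SD, n = 3 each; log2 -2.32, SE 0.17; edgeR quasi-likelihood, adjusted p = 1.55e-06). Mki67 (chromosome 7, 135689784 to 135716361), the Ki-67 protein that coats mitotic chromosomes, was at 10.8, 8.88 and 12.1 CPM and then at 1.65, 1.25 and 1.90 CPM (log2 -2.72, SE 0.23). Birc5, survivin, was at 3.36, 3.42 and 4.09 CPM and then at 0.552, 0.734 and 0.492 CPM (log2 -2.60, SE 0.34). Its partner Cdca8, borealin, fell by 1.93.

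Spindle and motor genes were lower in every IL-10 heart than in any saline heart. Aspm, a protein of the spindle poles, was at 4.09, 4.08 and 3.13 CPM after saline and at 2, 3 and 3 counts after IL-10 (log2 -4.25, SE 0.42; edgeR quasi-likelihood, adjusted p = 1.78e-05). Tpx2, which activates aurora A on the spindle, was at 11.6, 9.32 and 11.6 CPM and then at 1.38, 1.69 and 2.04 CPM (log2 -2.67, SE 0.22). Prc1, which bundles microtubules at the midzone, was at 10.5, 7.21 and 7.93 CPM and then at 0.896, 1.83 and 0.983 CPM (log2 -2.79, SE 0.29), and 11.1% of its exon bases are shared with Rccd1 on the other strand. Hmmr and Nusap1, both microtubule-binding, fell by 3.23 and 1.71. Among 6 kinesins, Kif11, the motor that pushes the poles apart, was at 7.31, 6.62 and 5.95 CPM and then at 1.52, 0.954 and 1.47 CPM (log2 -2.32, SE 0.27). Kif20a and Kif23, motors of the central spindle, fell by 1.70 (SE 0.25) and 1.83 (SE 0.31). Kif20a was at 5.41 to 6.21 CPM and then at 1.38 to 2.11 CPM, and Kif23 at 3.39 to 5.48 and then at 1.05 to 1.65 CPM. Of Kif20a's exon bases 29.3% are shared with Cdc23 on the other strand. The other 3, Kif2c, Kif4 and Kif15, fell by 2.22, 2.45 and 2.76, and Kif4 shares 15.1% of its exon bases with Pdzd11 on the other strand.

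Genes of mitotic exit and of cell separation fell as well. Cdc20, which activates the anaphase-promoting complex, was at 5.77, 5.53 and 5.12 CPM after saline and at 0.689, 1.83 and 0.351 CPM after IL-10 (log2 -2.52, SE 0.39). Ube2c, the ubiquitin-conjugating enzyme of that complex, fell by 2.47 (SE 0.35), from 3.43, 4.37 and 7.16 CPM to 1.10, 0.807 and 0.772 CPM. Of its exon bases 22.8% are shared with Tnnc2, a muscle troponin gene on the other strand. Cdca3, a trigger of mitotic entry through protein breakdown, fell by 2.77 (SE 0.34), from 5.99, 3.79 and 4.93 CPM to 0.621, 1.03 and 0.492 CPM. Anln, the furrow protein anillin, was at 12.8, 9.61 and 10.7 CPM and then at 1.65, 1.83 and 2.11 CPM (log2 -2.56, SE 0.22). Racgap1, of the centralspindlin complex with Kif23, was at 6.43, 6.77 and 6.33 CPM and then at 1.38, 1.10 and 1.61 CPM (log2 -2.24, SE 0.26). Iqgap3, a scaffold of the proliferating cell, was at 4.38, 2.77 and 4.16 CPM and then at 0.345, 0.220 and 0.562 CPM (log2 -3.29, SE 0.40). Ect2, the exchange factor that activates RhoA at the furrow, fell by 3.02.

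Pimreg and Depdc1a, both known as genes of mitotic cells, had 35 to 58 and 25 to 29 counts after saline and 2 to 4 and 1 to 4 after IL-10. They fell by 3.63 (SE 0.44) and 3.44 (SE 0.51). Within the saline group replicate 1 was the highest heart in 23 of 42 members, while replicate 2 was the highest in 5 and the lowest in 25. No IL-10 heart was the highest of its group in more than 18.

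Other cell division genes fell in part, by list. Of 27 tested genes of spindle, motors and cytokinesis outside the members, 19 fell and 0 rose (median log2 -1.96). Ckap2 and Ckap2l, spindle proteins, and Kif22, a chromosome-arm motor, fell by 2.83, 2.87 and 2.72. Of 35 tested kinetochore, centromere and checkpoint genes 18 fell and 0 rose (median -0.81), led by Hjurp, the centromeric histone chaperone (log2 -0.98), Knstrn (-2.30) and Zwilch (-3.11). Of 32 DNA replication genes 14 fell and 0 rose (median -0.76), among them Uhrf1 (-1.70), the nucleotide enzyme Rrm2 (-1.87) and Tyms, thymidylate synthase (-1.39). Of 21 condensin, cohesin and separase genes 6 fell and 0 rose (median -0.10), among them the condensin genes Smc2 (-1.29), Ncaph (-1.76) and Ncapg (-2.32).

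The anaphase-promoting complex list holds core subunits and also Fzr1 and Ube2s, which are not core subunits. It gave 0 calls among 16 genes in edgeR, in DESeq2 and in limma-voom, with 3 at an unadjusted p under 0.05 in each. Over all tested genes edgeR gave 28.3% at that p. Anapc16 (log2 0.33), Anapc13 (0.34) and Cdc27 (-0.31) had the smallest p of that list. Of 28 G2/M regulators 11 fell and 3 rose (median -0.69). Cyclin F (Ccnf) fell by 2.42, the greatwall kinase gene Mastl by 1.90 and Foxm1, the transcription factor of the CHR genes, by 2.09. Mybl2, which encodes B-MYB, fell by 2.41. The 3 rises were Rbl2, which encodes p130 (log2 0.55), E2f6, a repressor of the E2F family (0.45), and Wee1, the kinase that holds Cdk1 inactive (0.60). The MuvB subunit gene Lin37 fell by 0.70. Of 15 genes of G1 control 3 fell, Ccnd1 (log2 -0.63), Cdk6 (-0.55) and the phosphatase gene Cdkn3 (-1.98), and 1 rose, Cdkn1c (0.72), which encodes the inhibitor p57.

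**Figure D3:**
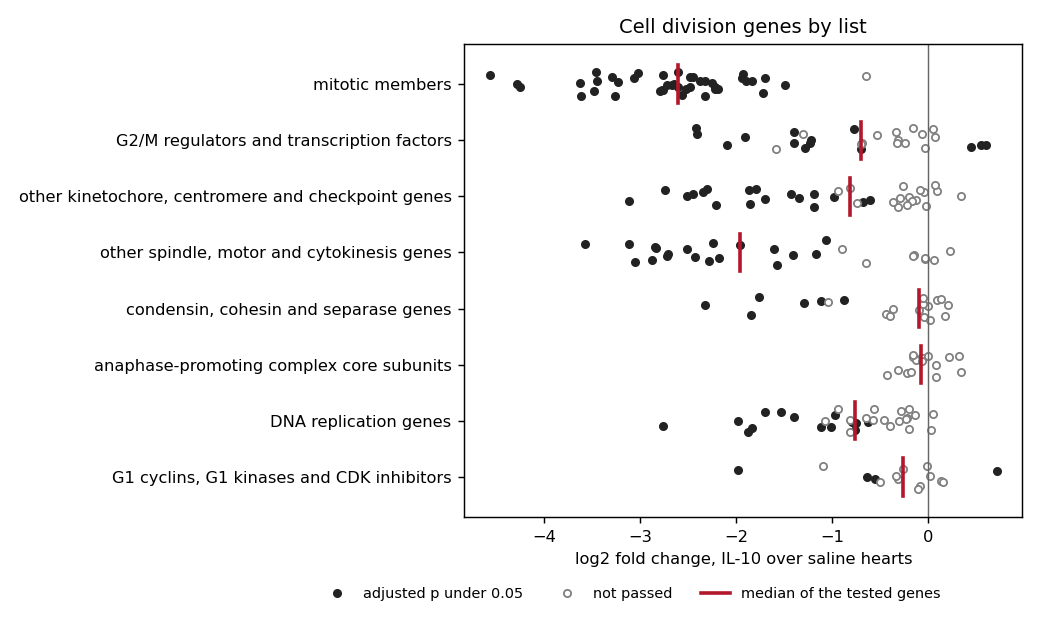
Log2 fold change of IL-10 over saline hearts (x axis) for each tested gene of the mitotic members and of 7 further cell division lists (y axis), with filled points for an adjusted p under 0.05 and a red bar at the median. The median is -2.60 for the mitotic genes, -1.96 for other spindle genes and -0.07 for the anaphase-promoting complex list.

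The CHR was read in the same way over genes outside the members. Of 653 tested genes with a CHR between 100 bases before and 50 after the start, 9.19% fell and 5.51% rose in the hearts. Of 9514 without one 6.36% fell and 7.19% rose. By these shares most genes did not pass the test, with or without these letters near their start. The medians were -0.03 and -0.00 on the log2 scale. Of the 36 members with a window, 7 had no CHR there, and all 7 fell (median log2 -2.37). These include Ccnb1, in whose window neither sequence was found.

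Some markers of several cell types were called in the hearts, where 6.7% of all tested genes fell and 6.86% rose. Of 5 markers of activated fibroblasts 3 fell, and the list summed to 979.5 to 1278 CPM after saline and 342 to 505 CPM after IL-10. Of 5 tested red blood cell markers 5 fell (sum of 6 listed 582 to 1188, then 300 to 548 CPM), and of 4 tested monocyte markers 2 fell (13.6 to 57.2, then 12.3 to 19.1 CPM). Of 11 macrophage markers 2 fell and 0 rose (731 to 1213, then 999.9 to 1125 CPM), of 8 fibroblast markers 3 fell and 2 rose (2551 to 3099, then 2211 to 2759 CPM), and of 8 endothelial markers 2 fell (619 to 743, then 545 to 624 CPM). Of 7 cardiomyocyte markers 1 fell (34337 to 41559, then 28842 to 34164 CPM). Only 2 of these 7 had a log2 value below 0, and their median was 0.16. Of 6 mural markers 1 fell and 0 rose (643 to 898, then 835 to 977 CPM). The sums of activated fibroblast, red blood cell and cardiomyocyte markers were apart between the groups. Those of every other list overlapped, mast cell, neutrophil, T and NK cell, B cell and mesothelial lists among them. No marker of any list was at 0 in every heart, and the part of these cells in the mitotic values was not tested.

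The macrophage comparison asked what loss of Cd163 changed in dexamethasone-treated cells. Here few mitotic genes passed the test in the main fit, and the number depended on the setting. Of 42 members 2 were higher in the knockout and 1 was lower (edgeR quasi-likelihood, adjusted p under 0.05), or 4.76% and 2.38%, where 13.1% of all tested genes were higher and 13.3% lower. The median log2 fold change of the members was 0.68, against 0.01 over all genes, and 40 of the 42 lay above 0 and 2 below, where 49.1% of all genes were below. The size of that shift differed between the libraries of both groups. The members other than Mki67 summed to 326 and 440 CPM in wild type and to 742 and 453 CPM in the knockout, and knockout replicate 1 was the higher knockout library in 41 of 42 members. Without it the median was 0.26, against -0.006 over all genes, and 33 of 42 were above 0. With no filter on low counts 29 of the 42 were called higher, where 2680 of all 24809 tested genes were. All 42 had reached the filter's cut-off in every library. In DESeq2 5 of the 42 were higher, where 1732 of all 13861 tested genes were. Wild-type replicate 2 was the higher wild-type library in 39 of the 42. The median was 0.44 without wild-type replicate 1, 0.89 without wild-type replicate 2 and 0.99 without knockout replicate 2.

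The 1 gene called lower was Mki67, and it went against the other members. Mki67 was at 221 and 187 CPM in wild-type and at 88.8 and 64.4 CPM in knockout macrophages, from 3720, 2944, 1785 and 1160 reads. Its log2 fold change was -1.41 (SE 0.19; edgeR quasi-likelihood, adjusted p = 0.00579), a 2.66-fold lower level, and it was called lower under every alternative that was run. Top2a, by contrast, was at 40.1 and 54.7 CPM and then at 82.3 and 41.6 CPM (log2 0.39, SE 0.33; adjusted p = 0.418), with overlapping groups. The ratio of Mki67 to Top2a CPM was 5.50 and 3.42 in wild type and 1.08 and 1.55 in the knockout. In the hearts, a separate table, the same ratio was 0.492 to 0.675 after saline and 0.378 to 0.450 after IL-10. Mki67 thus held 40.4% and 29.8% of the members' summed CPM in wild-type macrophages, 10.7% and 12.4% in the knockout, and 3.51% to 5.52% in hearts.

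Per length, Mki67 again stood apart in wild-type macrophages. On CPM per kilobase of exon, Mki67 was the highest member in wild-type macrophages at 20.3 ± 2.38 (SD, n = 2), and Tpx2 (5.40 ± 1.39) and Top2a (5.26 ± 1.15) followed, within the spread of each other. In the knockout Ccnb2 (9.05 ± 4.95), Mki67 (7.61 ± 1.72), Tpx2 (7.38 ± 1.41) and Top2a (6.87 ± 3.19) did not differ beyond their spread. In saline hearts the order began with Cdc20 (2.93 ± 0.178) and Ccnb2 (2.85 ± 0.252), and in IL-10 hearts with Cdc20 (0.513 ± 0.416) and Ccna2 (0.427 ± 0.0405; n = 3 each). Knl1 was the lowest member per length in both heart groups.

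The 2 genes called higher act at the end of division. Kif23, the midzone kinesin, was at 4.81 and 6.35 CPM in wild type and at 16.6 and 10.5 CPM in the knockout (log2 1.29, SE 0.28; edgeR quasi-likelihood, adjusted p = 0.0238). Anln, anillin, was at 21.2 and 28.2 CPM and then at 40.1 and 36.2 CPM (log2 0.63, SE 0.17; adjusted p = 0.0430). In both genes the groups were apart, but the Kif23 call was lost without knockout replicate 1 (log2 0.92, adjusted p = 0.132), and that of Anln without wild-type replicate 1 or either knockout library (adjusted p 0.0960 to 0.211). Plk1 (log2 0.97; adjusted p = 0.0512) and Ccnb2 (1.23; adjusted p = 0.0776) lay just outside. Ccnb1 was at 10.1 and 13.6 CPM and then at 21.7 and 15.5 CPM (log2 0.66; adjusted p = 0.0890), and Cdk1 at 11.6 and 14.7 CPM and then at 29.4 and 14.3 CPM (0.74; adjusted p = 0.164). Depdc1a was the other member with a value below 0 (log2 -0.41; adjusted p = 0.296, edgeR quasi-likelihood), at 4.57 and 6.67 CPM and then at 4.13 and 4.33 CPM. In 24 members both knockout libraries lay above both wild-type ones, as they did in 35.3% of all tested genes.

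**Figure D4:**
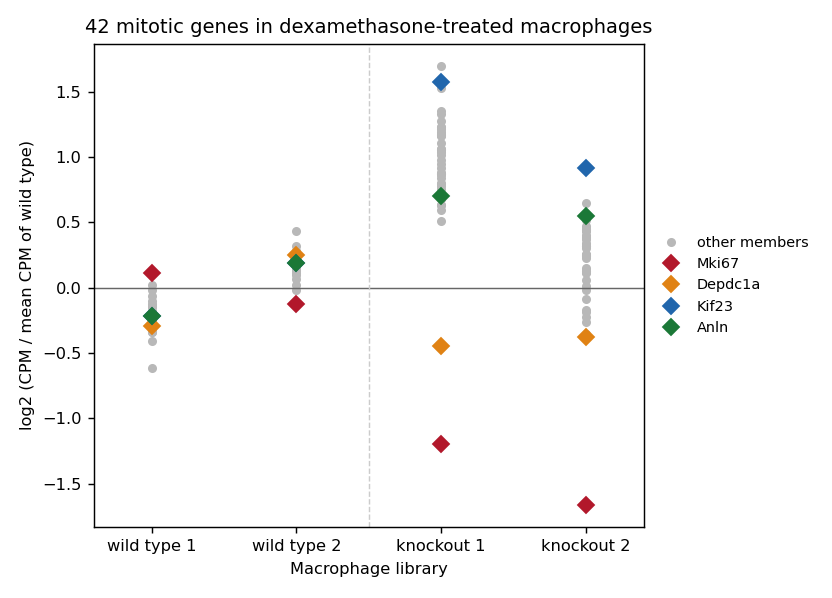
Log2 ratio of each member's CPM to its wild-type mean (y axis) in the 4 macrophage libraries (x axis), grey for 38 members and coloured for 4 named genes. Knockout replicate 1 is high in most members and Mki67 is low in both knockout libraries, at 88.8 and 64.4 CPM against 221 and 187 CPM in wild type.

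Further cell division genes were called in both directions in macrophages. Over the 7 lists 23 of 187 tested genes were higher and 8 lower in the knockout, or 12.3% and 4.28%, where 13.1% and 13.3% of all tested genes were. The higher share is near that of all genes. The median log2 fold change over these lists was 0.31, and 0.095 without knockout replicate 1. Of 29 other spindle, motor and cytokinesis genes 4 were higher (13.8%) and 0 lower (median log2 0.69). Of 41 kinetochore, centromere and checkpoint genes 5 were higher (12.2%) and 1 lower, Trip13, the checkpoint ATPase (log2 -1.39). Of 33 DNA replication genes 4 were higher (12.1%) and 1 lower, Pola2, a subunit of DNA polymerase alpha (-1.47). Of 29 G2/M genes 4 were higher (13.8%) and 3 lower (10.3%), E2f3, E2f4 and Cdc25a. Of 22 condensin, cohesin and separase genes 2 were higher (9.09%) and 0 lower. They include Ncapg2 at 20.5 ± 1.84 and 65.0 ± 4.56 CPM (SD, n = 2 each, log2 1.66). Of 17 G1 genes 4 were higher (23.5%), among them the cyclin gene Ccnd2 (1.75) and the inhibitor gene Cdkn1b (0.81). Of 16 genes of the anaphase-promoting complex list 3 were lower (18.8%), the core subunit gene Cdc27 and also Fzr1 and Ube2s, and 0 higher.

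Some markers of other cells differed between the macrophage groups, where 13.1% of all tested genes were higher and 13.3% lower. Of 6 mesothelial markers 3 were higher in the knockout, and the list summed to 118 and 80.9 CPM in wild type and to 262 and 216 CPM in the knockout. Of 6 tested fibroblast markers 4 were higher and 1 lower (1642 and 2424, then 4839 and 3674 CPM). Both tested neutrophil markers of 6 listed were lower (166 and 328, then 49.6 and 97.9 CPM, with Retnlg at 0 in every library), and of 5 monocyte markers 2 were lower and 1 higher (731 and 980.3, then 229 and 507 CPM). Of 11 macrophage markers 4 were higher and 1 lower (31311 and 25638, then 25600 and 26798 CPM). Of 5 activated fibroblast markers 2 were tested and 1 was higher (10.3 and 10.0, then 45 and 32 CPM), and of 3 tested mural markers 1 was higher, with sums that overlapped (18.0 to 28.2, then 17.9 to 31.2 CPM). T and NK cell, B cell, red blood cell and mast cell lists summed to at most 1.89 CPM in any library. The part of other cells in the mitotic values was not tested.

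**Figure D5:**
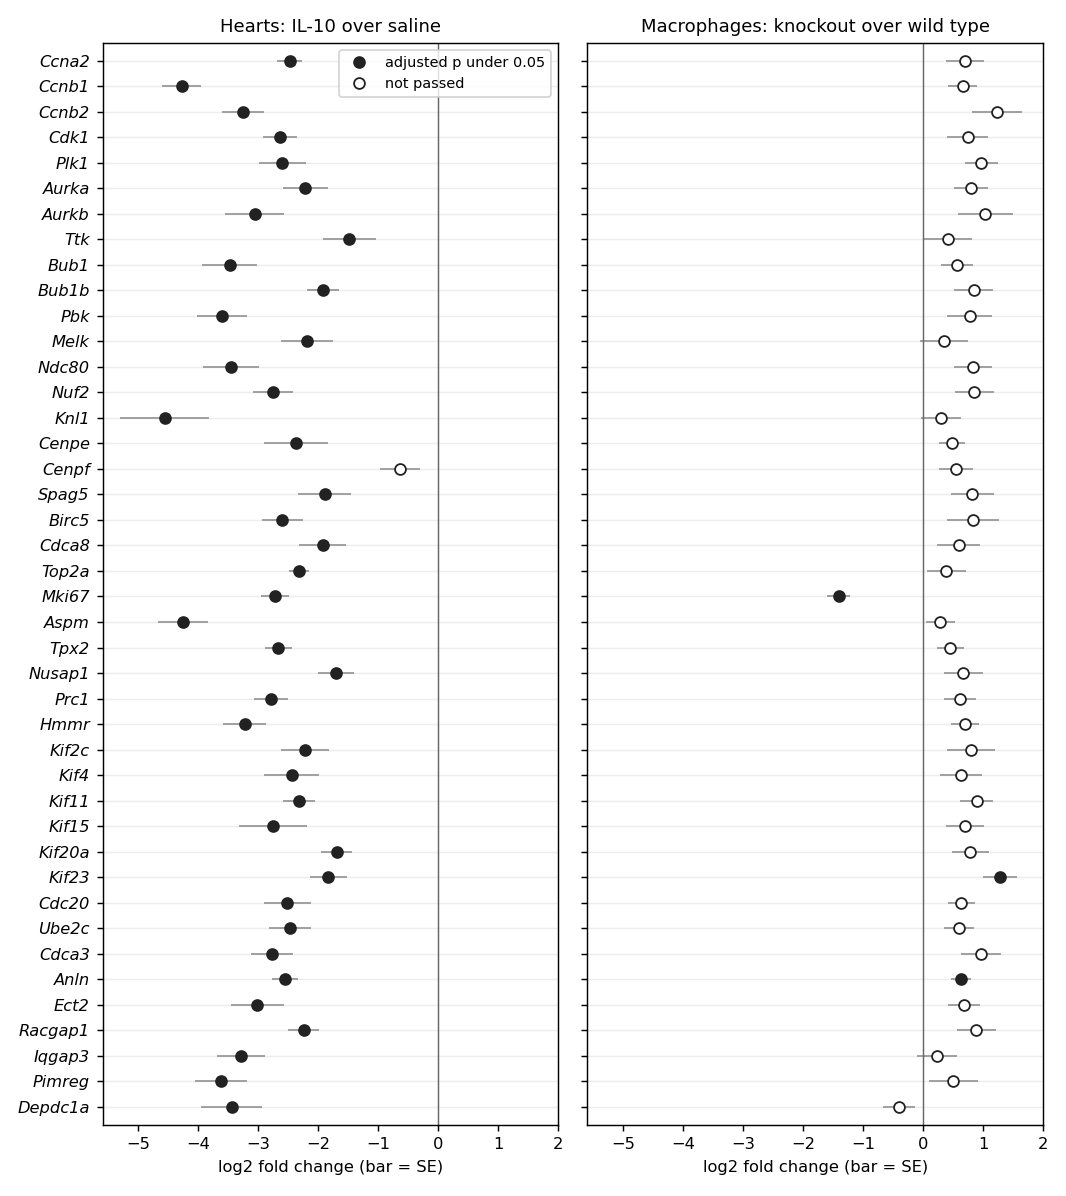
Log2 fold change (x axis) of the 42 mitotic genes (y axis) in hearts, IL-10 over saline, and in macrophages, knockout over wild type, with the SE as a bar and filled points for an adjusted p under 0.05. In hearts 41 points are filled and all lie below 0, and in macrophages 3 are filled, with Mki67 at -1.41 and Kif23 and Anln above 0.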

How the data were processed

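The deposited values were counts. Per the submitters' processing notes, the authors aligned reads with HISAT2 (version 2.2.1) and made gene counts with featureCounts (its version: not given in the sources used here). Per the labels' protocols, poly(A) RNA libraries were made with the NEBNext Ultra RNA kit, which does not mark strand, and the protocol names livers as the RNA source although the samples are hearts and macrophages. The labels list both GRCm39 and mm10, and which of them the counts used is not given. Gene names came from GENCODE M21 (52081 of 55357 identifiers), promoter sequences from RefSeq on GRCm38.p6.

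Hearts and macrophages were fitted separately, in R 4.3.3 with edgeR 4.0.16: filterByExpr (minimum count 10, minimum total 15), TMM scaling, the quasi-likelihood test, and Benjamini-Hochberg adjustment over all tested genes, called at an adjusted p under 0.05. SE is the size of the log2 fold change over the root of its F statistic. The fitted log2 fold change of a gene near 0 counts depends on edgeR's prior count. Alternatives were other scalings and filters, DESeq2 1.42.0, limma-voom (limma 3.58.1), the replicate number as a block, mitochondrially encoded genes left out, and each library left out. The procedure was tested on simulated data.

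The members and gene lists were chosen with earlier results of these data known. Members are described by role. Up to 3 per role with the smallest p in hearts are given by library, with every member that missed the test there. In macrophages these are the called members, Top2a, Ccnb1 and Cdk1. In each further list the 3 genes with the smallest p in hearts are named, with any called gene that went against its list. Genes named outside this rule were chosen after their values were seen: Depdc1a, Plk1, Ccnb2, Ncapg2, Ccnd2, Cdkn1b and the genes lower in their lists in macrophages, Mybl2 and Lin37 in hearts, and the genes whose promoter sites are printed.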

Additional observations from a re-analysis of the deposited data

How the results depend on the processing

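Across every alternative and with each heart left out, all tested members stayed below 0 in the hearts, and 38 to 41 were called lower (38 of 39 with genes required to reach 1 CPM throughout a group). With 1 heart left out the members called were 39 to 40, the pathway genes called 46 to 76 and all genes called 897 to 1968. In macrophages the members called were 3, but 5 with upper-quartile scaling, 7 with library size alone, 30 with no filter, 6 in DESeq2 and 1 to 14 with 1 library left out. The pathway genes called in macrophages were 31, but 59 with no filter, 18 with the replicate block and 3 to 29 with 1 library left out, and all genes called went from 734 to 3811. The median log2 fold change of members in macrophages went from 0.26 to 0.99 with 1 library left out. It was 0.79 with upper-quartile scaling and 0.86 with library size alone, which moved the median of all genes to 0.13 and 0.19. The cause of these changes was not tested. Members not called in macrophages changed sign without knockout replicate 1, and over the libraries left out Ttk went from -0.22 to 0.83, Melk from -0.26 to 0.75, Knl1 from -0.087 to 0.58, Cdca8 from -0.017 to 1.00, Top2a from -0.19 to 0.78, Iqgap3 from -0.36 to 0.62 and Pimreg from -0.17 to 0.93.

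Replicate numbers are shared between groups, but same-numbered hearts did not deviate together (r = -0.18, 0.04 and 0.00 over 13718 genes), nor did macrophage libraries (r = -0.11 over 13861 genes). With the replicate block 40 members were called in hearts, where Ttk missed the threshold (log2 -1.48, adjusted p = 0.0595, edgeR quasi-likelihood), and 2 in macrophages, where Anln missed it (log2 0.64, adjusted p = 0.0659). With crossed macrophage numbers, an alternative chosen after seeing the data, 25 members, 50 pathway genes and 4595 of all genes were called. Leaving out a macrophage library leaves a lone sample, assumed to vary like the other group. In IL-10 hearts 16 members had fewer than 10 counts in every library, which limits their fold changes.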
